A study of Glycine max with 4 samples.

Results

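The JAGGED genes of soybean are a duplicated pair. JAG1 is the gene of the Ln locus, which sets leaflet shape and the number of seeds per pod, and has the identifier Glyma.20G116200. JAG2 is its duplicate, Glyma.10G273800. These 2 genes were taken by identifier from a table of 56044 genes, under a rule that uses no measured value. The choice was nevertheless made with earlier results of these data known. By the digits of the identifiers they lie on chromosomes 20 and 10. The names come from the rule that chose the genes, since the deposited tables carry identifiers alone.

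JAGGED encodes a zinc-finger transcription factor that was first described in Arabidopsis, where it promotes the growth of lateral organs such as leaves, sepals and petals and represses inhibitors of the cell cycle. In soybean the recessive ln allele of JAG1 gives narrow leaflets and pods with more seeds. The gene acts in young organs at the shoot tip, the part of the plant that was sampled here. What JAG2 does in soybean leaflets is less well known.

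RNA was sequenced from shoot tips of Glycine max cultivar Thorne, 1 library from each of 4 plants. The tips were 5 cm long, held immature trifoliate leaves and came from plants kept 1 month in a greenhouse. The tagged plants (tagged 1 and tagged 2) were transgenic and positive for the mmPing20F insertion at position 2785626 of chromosome 8. mmPing20F is an activation tag built on mPing, a small rice transposable element, and is meant to raise the expression of genes beside it. The untagged plants were a transgenic plant with a construct that expresses the transposase (untagged 1) and an untransformed plant (untagged 2), both negative for that insertion. Whether the tagged plants still carried the transposase construct, the promoter that drives it, and whether the tagged plants were siblings are not given in the labels. Neither JAGGED gene lies on the chromosome of the tag.

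Library totals ranged from 27900266 to 49210060 reads counted in genes. The untransformed library stood apart from the other 3. Of genes that averaged at least 50 normalized counts over the pair of libraries compared, between 34.4% and 37.5% differed by over 2-fold in pairs with the untransformed plant, against between 1.58% and 3.23% in pairs of transgenic plants. The tagged plants are therefore also compared with the transgenic untagged plant alone. The identifiers could not be paired with names of shoot tip, leaf or flower markers, so the labelled tissue was not checked against markers.

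Both genes were detected in all 4 plants, at low counts. Levels are given as normalized counts, which are raw reads divided by a size factor for each library. They are not divided by gene length, so a level of JAG1 is compared between plants and not with a level of JAG2.

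JAG1, the Ln gene, had 15 reads in tagged 1, 18 in tagged 2, 7 in untagged 1 (transgenic) and 11 in untagged 2 (untransformed). Scaled for depth, its normalized count was 10.1 in tagged 1 and 21.5 in tagged 2, against 7.43 in untagged 1 (transgenic) and 12.9 in untagged 2 (untransformed). Tagged 2 was the highest and the transgenic untagged plant the lowest, and the groups overlapped because tagged 1 lay below the untransformed plant.

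JAG1 averaged 15.8 ± 8.02 normalized counts in tagged plants and 10.2 ± 3.88 in untagged plants (SD, n = 2 each). The difference was smaller than the spread within the tagged pair. Tagged 2 was 2.12-fold above tagged 1, with a 95% counting interval of 1.01 to 4.52. In the order of the 4 levels (tagged 2, untransformed, tagged 1, transgenic untagged), the counting intervals of all neighbouring pairs overlapped. Tagged 2 was 2.89-fold above the transgenic untagged plant (1.15 to 8.18), while tagged 1 was at 1.36 times that plant (0.52 to 3.95). All such intervals cover counting error only.

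JAG2, the duplicate, had 42 reads in tagged 1, 22 in tagged 2, 68 in untagged 1 (transgenic) and 9 in untagged 2 (untransformed). Its normalized count was 28.3 in tagged 1 and 26.2 in tagged 2, against 72.2 in untagged 1 (transgenic) and 10.6 in untagged 2 (untransformed). The tagged plants were close to each other, and the untagged plants lay on either side of them.

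JAG2 averaged 27.3 ± 1.48 normalized counts in tagged plants and 41.4 ± 43.6 in untagged plants (SD, n = 2 each). The untagged SD was larger than the mean, since the group joins the highest and the lowest of the 4 plants. This order, with the transgenic untagged plant above and the untransformed plant below both tagged plants, was shared by 20% of the 38824 genes tested. Tagged 1 was at 1.08 times tagged 2, with a counting interval of 0.63 to 1.90, so a difference between them was not detectable at this depth. The counting interval of the transgenic untagged plant (56.0 to 91.5 normalized counts) lay above those of both tagged plants (20.4 to 38.3 and 16.4 to 39.7). That of the untransformed plant (4.83 to 20.1) lay below that of tagged 1 and overlapped that of tagged 2.

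**Figure D1:**
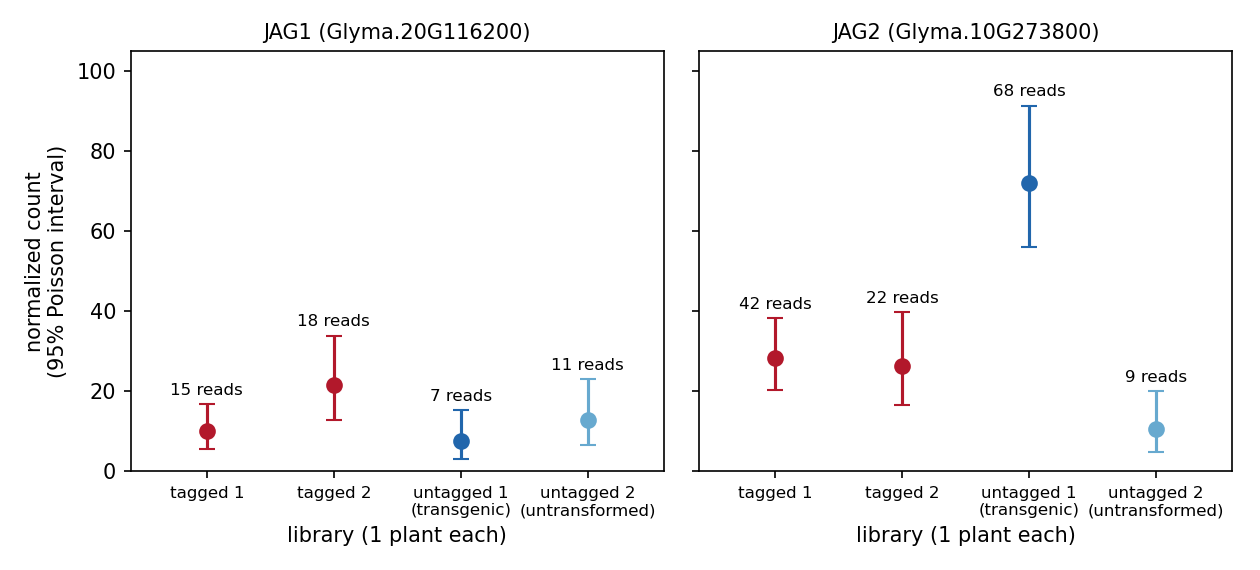
Normalized counts of JAG1 (left) and JAG2 (right) in each library, with tagged plants in red and untagged plants in blue; points are single plants, bars are exact 95% Poisson intervals of counting error, and the raw reads stand above each bar. JAG1 lies between 7.43 and 21.5 with overlapping bars in neighbouring levels, whereas JAG2 is at 28.3 and 26.2 in the tagged plants, between 72.2 in the transgenic untagged and 10.6 in the untransformed plant.

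The reads of both copies together came to 38.4 normalized counts in tagged 1 and 47.7 in tagged 2, against 79.6 in untagged 1 (transgenic) and 23.5 in untagged 2 (untransformed). The sum followed JAG2 in placing the untagged plants at the ends. Because the sampled tip holds many cell types, fewer cells that express these genes and less of their RNA per cell cannot be told apart.

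The balance between the copies differed among plants. JAG1 made up 26.3% of the reads of both genes in tagged 1 (15 of 57 reads, exact Clopper-Pearson 95% interval 15.5 to 39.7) and 45% in tagged 2 (18 of 40 reads, 29.3 to 61.5). Of the untagged plants, the transgenic one had a share of 9.33% (7 of 75 reads, 3.84 to 18.3) and the untransformed one a share of 55% (11 of 20 reads, 31.5 to 76.9). The share was lowest in the transgenic untagged plant, where JAG2 was highest. Its interval did not overlap those of tagged 2 and the untransformed plant, and it did overlap that of tagged 1.

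The mean JAG1 share was 35.7 ± 13.2% in tagged plants and 32.2 ± 32.3% in untagged plants (SD, n = 2 each). The log2 ratio of JAG1 to JAG2 reads averaged -0.89 in tagged and -1.50 in untagged plants, with a two-sided exact permutation p of 1. With 2 plants against 2 the smallest p such a test can give is 0.333. A share of reads within a library needs no scaling between libraries, but without gene lengths it does not say which copy had more transcripts. JAG1 and JAG2 are related copies, and how reads that match both were counted is not given in the sources used here. Such reads may have been left out or credited to the wrong copy, and either could alter the share.

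**Figure D2:**
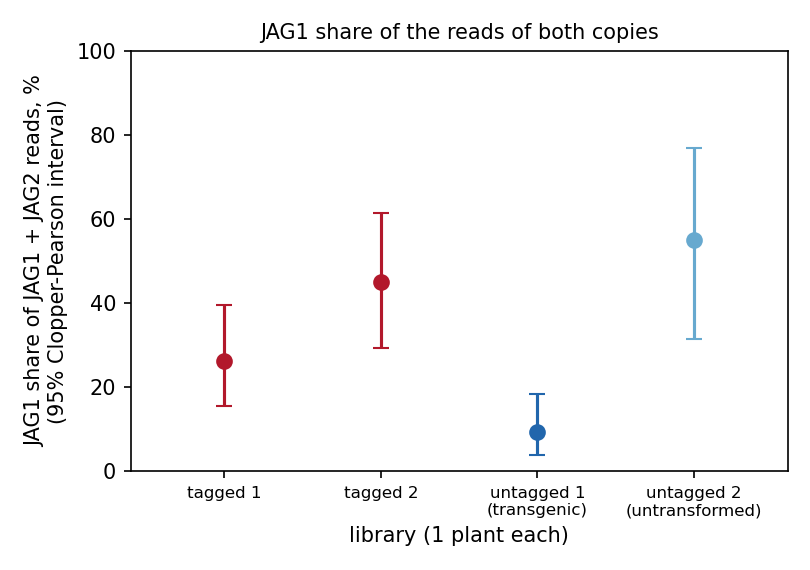
JAG1 reads as a percentage of JAG1 plus JAG2 reads in each library (1 plant each), with exact 95% Clopper-Pearson intervals of counting error. The share is 26.3% and 45% in the tagged plants, 9.33% in untagged 1 (transgenic) and 55% in untagged 2 (untransformed), so the tagged values lie between the untagged ones.

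The study's comparison set plants with the tag against plants without it. Neither JAGGED gene passed the test in either direction. The log2 fold change of tagged over untagged plants was 0.61 ± 0.70 (SE) for JAG1, with a 95% interval of -1.29 to 2.50, and its edgeR quasi-likelihood adjusted p was 0.947. For JAG2 it was -0.60 ± 0.97, with an interval of -3.21 to 2.02 and an edgeR adjusted p of 0.949. As fold changes, the intervals ran from 0.41 to 5.66 for JAG1 and from 0.108 to 4.05 for JAG2, and neither a 2-fold rise nor a 2-fold fall of either gene lay outside them.

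This test called 0% of the 38824 genes at an adjusted p under 0.05 in edgeR, so the members' count of 0 is that of the background. The groups overlapped at both JAGGED genes, whereas they did not overlap at 29.1% of genes tested. Unadjusted, 444 genes (1.14%) had p under 0.05 in edgeR; DESeq2 called 32 genes and limma-voom 0. The direction of JAG2 turned with the control: without the untransformed plant its log2 fold change was -1.39, and without the transgenic untagged plant it was 1.39. The log2 fold change of JAG1 was 0.02 without tagged 2 and 1.08 without tagged 1.

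Among the 3 transgenic plants, which leave out the untransformed library, the values of the copies pointed in opposite directions, and neither passed over all genes. JAG2 was at 28.3 and 26.2 normalized counts in the tagged plants, against 72.2 in the transgenic untagged plant. Tagged 1 was at 0.392 times the transgenic untagged plant (counting interval 0.261 to 0.585) and tagged 2 at 0.363 times (0.214 to 0.595). Its log2 fold change was -1.39 ± 0.42 (SE), with a 95% interval of -2.38 to -0.39, an unadjusted edgeR p of 0.0137 and an edgeR adjusted p of 0.395. The difference was thus larger than the spread of the tagged pair, while the correction over 39528 genes was not passed. DESeq2 gave a log2 fold change of -1.39 with an SE of 0.793, against an SE of 0.417 in edgeR, so the precision depended on the tool.

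Of all genes tested among the transgenic plants, 0.0101% were called at an adjusted p under 0.05 and 9.48% had an unadjusted p under 0.05. Both tagged plants lay below the transgenic untagged plant at 37.3% of genes, so the order of the libraries was a common one. A log2 fold change as low as that of JAG2 or lower was found for 0.428% of genes tested, and for 0.517% of the 5614 tested genes whose mean lay within 2-fold of that of JAG2. Without the filter on low counts, the share of all genes was 2.68% with DESeq2 and 2.52% with edgeR. That of genes of like mean was then 0.8% and 0.766%. This is a description of where JAG2 lay in 3 libraries, and the spread of the single untagged plant was taken to be that of the tagged pair.

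JAG1 was at 10.1 and 21.5 normalized counts in the tagged plants, against 7.43 in the transgenic untagged plant. Both tagged plants were above it, an order found at 34.5% of genes. The log2 fold change was 1.03 ± 0.89 (SE), with an interval of -1.09 to 3.15 and an edgeR adjusted p of 0.77. It was 0.45 without tagged 2 and 1.53 without tagged 1, each a value with no test. A log2 fold change this high or higher was found for 4.26% of all genes tested and for 16.1% of the 3785 tested genes of like mean. These shares and the adjusted p depend on the low-count filter, which a gene could pass here through a single library. JAG1 passed it through tagged 2 alone, with 6.45e-05% of the library's reads, against 3.05e-05% in tagged 1 and 2.26e-05% in untagged 1. Without the filter on low counts, its share of all genes was 10% with DESeq2 and 10.3% with edgeR. That of genes of like mean was then 18.4% and 19.3%, and the edgeR adjusted p was 0.828.

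**Figure D3:**
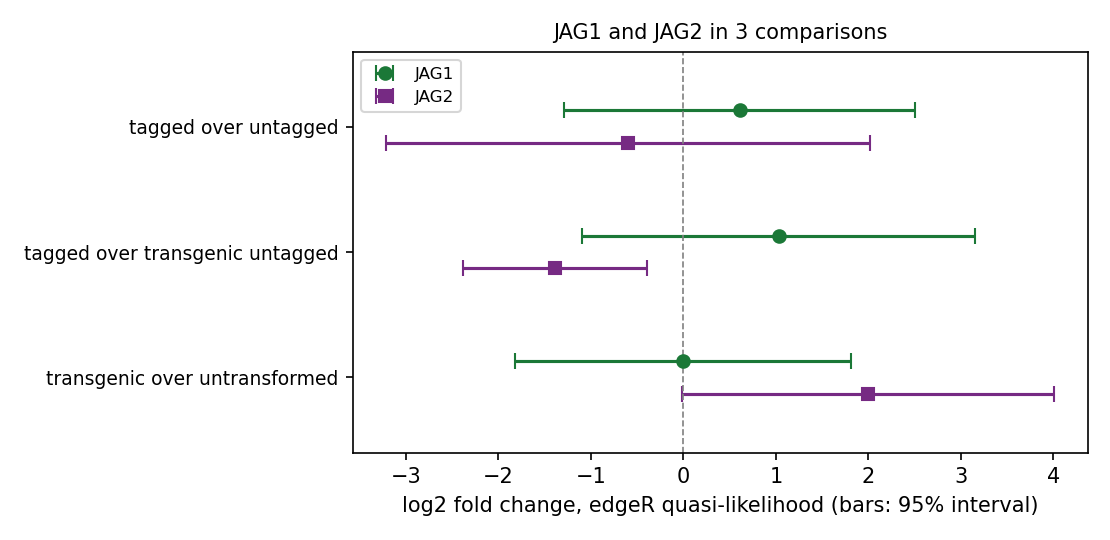
Log2 fold changes of JAG1 (circles) and JAG2 (squares) in the 3 comparisons from edgeR's quasi-likelihood fit, with 95% intervals; values above 0 are higher in the plants named before "over". The JAG2 interval lies wholly below 0 for tagged over transgenic untagged plants (-2.38 to -0.39) and reaches 0 in the other 2 comparisons, and the JAG1 intervals reach 0 in all 3.

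The transgenic plants were also set against the untransformed plant, the library that stood apart. JAG2 was at 28.3, 26.2 and 72.2 normalized counts in the transgenic plants (tagged 1, tagged 2 and untagged 1), against 10.6 in the untransformed plant. All 3 transgenic plants were above it, as at 42.4% of the 40884 genes tested, while all 3 were below it at 43.3%. The ratio to the untransformed plant was 2.68 for tagged 1 (counting interval 1.29 to 6.26), 2.48 for tagged 2 (1.10 to 6.12) and 6.83 for untagged 1 (3.39 to 15.6). The log2 fold change was 1.997 ± 0.843 (SE), with an interval of -0.01 to 4.01, an unadjusted edgeR p of 0.0512 and an edgeR adjusted p of 0.0902. JAG2 therefore did not pass, in a comparison that called 49.1% of all genes. Its log2 fold change was 1.39 without untagged 1, and 2.23 without either tagged plant. Over the 8 alternatives the log2 fold change of JAG2 ran from 1.39 to 2.23. It did not pass the correction over all genes in any of them.

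JAG1 did not pass either. It was at 10.1, 21.5 and 7.43 normalized counts in the transgenic plants, against 12.9 in the untransformed plant, which lay within their range. The log2 fold change was -0.003 ± 0.76 (SE), with an interval of -1.82 to 1.81 and an edgeR adjusted p of 0.998. As a fold change the interval ran from 0.284 to 3.51. The comparison rests on 1 untransformed plant, whose spread was taken to be that of the 3 transgenic plants in every p of this comparison, and transgene status and that plant cannot be told apart.

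**Figure D4:**
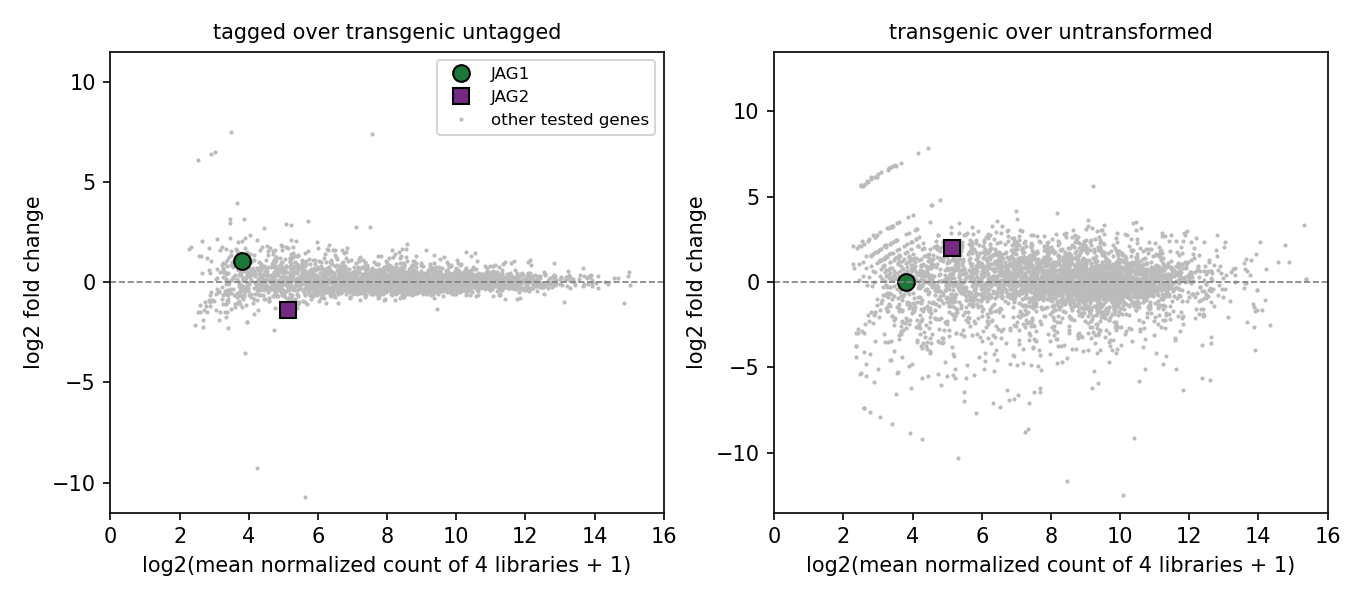
Log2 fold change against the log2 of the mean normalized count of the 4 libraries plus 1, for a random sample of the tested genes (grey) with JAG1 (circle) and JAG2 (square), for tagged over transgenic untagged plants (left) and transgenic over untransformed plants (right). JAG2 lies at -1.39 near the lower edge of the left cloud and at 1.997 within the wider right cloud, and JAG1 at 1.03 and -0.003; both are at the low end of the range of means.

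The counts of these genes limit what could be seen. Among 4812 genes with a mean within 2-fold of that of JAG1, 25.3% differed by over 2-fold between the tagged plants themselves, as JAG1 did. Among 5893 genes with a mean within 2-fold of that of JAG2, 12.6% did so. In pairs with the untransformed plant these shares were between 55.4% and 58.6% at the level of JAG1 and between 49.8% and 54.0% at the level of JAG2. Of the genes at the level of JAG2, 15.0% were as far apart as JAG2 or farther between the untagged plants, 6.84% between tagged 1 and the transgenic untagged plant, and 8.23% between tagged 2 and that plant.

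The genes numbered beside the JAGGED genes had more reads than these. The 8 genes at the 2 places on each side of either gene had between 75.4 and 8993 normalized counts, above both JAGGED genes in every library. Their log2 fold changes ran from -0.87 to 0.36 in tagged over untagged plants, from -0.09 to 0.59 in tagged over transgenic untagged plants and from -1.43 to 0.49 in transgenic over untransformed plants. In the last comparison, which called 49.1% of all genes, 1 of the 8 passed the edgeR test: Glyma.20G116000, numbered 2 places before JAG1, fell to 540, 410 and 455 normalized counts in transgenic plants (tagged 1, tagged 2 and untagged 1), against 1288 in the untransformed plant, with an edgeR adjusted p of 0.00109. The genes directly beside JAG2 did not share its high value in the transgenic untagged plant: Glyma.10G273700 was at 332 and 377 normalized counts in the tagged plants, against 340 in the transgenic untagged and 251 in the untransformed plant. Glyma.10G273900, on the other side, was at 94.4 and 76.3 in the tagged plants, against 75.4 in the transgenic untagged and 81.0 in the untransformed plant.

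The genes most like JAG1 in pattern were Glyma.02G122400 and Glyma.18G000400, at distances of 0.16 and 0.19. The distance is Euclidean, on log2(normalized count + 1) centred on each gene's mean over the 4 libraries, among 4811 genes with a mean within 2-fold. Glyma.13G353700 and Glyma.08G270500 were the most like JAG2, at distances of 0.18 and 0.21 among 5892 genes. Glyma.08G270500 was at 39.8 and 40.5 normalized counts in the tagged plants, against 121 in the transgenic untagged and 15.3 in the untransformed plant. Likeness over 4 libraries is given as a description.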

How the data were processed

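The authors deposited raw read counts per gene, 1 column per library, and a table of the same counts divided by a size factor per library (a scaled signal, here normalized counts). Multiplying the deposited signal by median-of-ratios factors gave the counts within 0.01 for 100% of values. A single fold ratio that the authors deposited for another gene was not used. The tools named per the submitters' processing notes are HISAT2 2.1.0, HTSeq 0.6.1, CASAVA 1.8 and DESeq2; build, annotation and strand setting: not given in the sources used here. The transgenic untagged plant is spelt differently in the design text and in the labels, and was taken as 1 plant.

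Genes were tested by quasi-likelihood in edgeR 4.0.16 under R 4.3.3, over all genes at once, with TMM scaling, edgeR's default low-count filter and Benjamini-Hochberg adjustment at 0.05. The fit was tested on simulated data, with changes planted only in genes of higher counts. Those changes were larger, and the simulated spread lower, than estimated for the JAGGED genes, so that test does not cover them. Alternatives were DESeq2 1.42.0 (run without the low-count filter), limma 3.58.1 (voom) and other scalings. Further ones were no filter beyond 1 count, transgenic status as a covariate, a replicate block and leaving out libraries. SE is the absolute log2 fold change over the square root of F. The members and lists were chosen with earlier results of these data known. Named besides the members were the 2 genes nearest in pattern and, by neighbouring number, examples from the 2 on each side. The planned lists of leaf development genes and tissue markers were not run, because 0 of 56044 identifiers matched the 59048 genes of the RefSeq table for Glycine_max_v4.0. No sequence table was used.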

Additional observations from a re-analysis of the deposited data

How the results depend on the processing

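The member results had 56 alternative values. Of the 46 with an adjusted p, 41 kept their direction and side of the threshold, and 0 were under 0.05. The other 10 had no adjusted p (DESeq2 gave none for JAG1 in 2 comparisons; the rest had no test), and 2 of them reversed, both of them differences in JAG1 share. The 56 values are not all from separate fits. Leaving the untransformed plant out of tagged over untagged plants repeats the main fit of tagged over transgenic untagged plants. Leaving out untagged 1 gives the same fit there as in transgenic over untransformed plants. In tagged over untagged plants, JAG1 was 1.02 and JAG2 -1.39 (log2) with transgenic status as a covariate. With limma-voom JAG1 was 0.49 and JAG2 -0.06. Leaving out 1 library in that comparison gave JAG1 0.02 to 1.08 and JAG2 -1.39 to 1.39, the last without untagged 1. The difference in JAG1 share, tagged minus untagged, ran from -19.3 to 26.3 percentage points. In transgenic over untransformed plants JAG1, near 0, became 0.17 with upper-quartile scaling, 0.015 without the filter and -0.50 to 0.25 with 1 transgenic library left out. Upper-quartile scaling moved the median of all genes there to 0.21, against 0.03 with TMM, and the split of calls to 11739 higher and 8675 lower, against 9510 and 10555. JAG2 in that comparison ran from 1.39 to 2.23 with 1 library left out, with adjusted p between 0.0659 and 0.183 over its alternatives. In tagged over transgenic untagged plants its adjusted p ran from 0.21 to 1 and its log2 fold change from -1.46 to -1.35, and JAG1 there ran from 0.45 to 1.53.

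With the replicate number as a block, JAG1 was 0.59 and JAG2 -0.12 (adjusted p 1 for both); same-numbered libraries deviated together with a correlation of -0.0524, so the numbers were not taken as pairs. Calls over all genes were 0 in tagged over untagged plants, 32 with DESeq2, 2 with the covariate, 20088 without untagged 1 and 4 without untagged 2. They were 4 in tagged over transgenic untagged plants, 234 with DESeq2, 0 with limma-voom, 8 with RLE, 42 with upper-quartile scaling and 361 without the filter. With a pseudocount of 5, 1 of the 2 genes nearest to JAG1 and 1 of the 2 nearest to JAG2 remained. The list alternatives were not run. The cause of these changes was not tested. With 7 to 68 reads per gene and library, counting error alone limits the precision of every value.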
